A study of Arabidopsis thaliana with 12 samples.

Results

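The low calcium response of wild-type Arabidopsis thaliana shoots was measured as the difference between 3 arrays of Col-0 seedlings raised on agar with 0.3 mM calcium and 3 arrays of Col-0 seedlings raised with 2 mM calcium. These 6 arrays are part of a set of 12, in which the other 6 hold lcs7, a mutant of AVP1 in the same design, and no probe set naming AVP1 was analysed here. All seedlings were 14 days old, stood on vertical plates of Yamagami medium with sucrose under long days, and gave total RNA from the shoot; each group held 3 biological replicates. Every probe set of the Affymetrix ATH1 array that names a single gene was used, which was 13513 of 22746 probe sets for 13356 genes, and 7290 of these had a mean signal of 100 or more over the Col-0 arrays. Col-0 is a single inbred accession and lcs7 a single mutant line, and the labels name no transfer between media.

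Calcium enters the root, moves with the water stream into the shoot and does not leave mature leaves again through the phloem, so young tissue feels a poor supply first. In the cell wall it cross-links pectin, in the vacuole it is stored, and in the cytosol brief rises in calcium act as a signal that is read by calmodulin, calmodulin-like proteins and calcium-dependent kinases. The same signal is an early step of plant immunity, in which salicylic acid and jasmonate control separate sets of defence genes.

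The deposited arrays had median signals of 161.3 to 187.6, and means of 494.3 to 495.3 after trimming 2% at each end. With trimmed means already this equal in the deposited values, a like scale is no check of the arrays. Within Col-0 at 0.3 mM, replicates 2 and 3 stood apart from replicate 1 at 11 genes that separate the lines, with every lcs7 signal 8-fold or more over every Col-0 control. With the mean of Col-0 at 2 mM set to 0% and that of low calcium lcs7 set to 100%, replicate 1 had a median of -0.0603% over the 11 genes, and replicates 2 and 3 had 25.5% and 37.2%. The share differed widely by gene, and in replicates 2 and 3 it ran from 1.3% and 1.5% at AT5G24240 to 65.2% and 67.8% at HTB11. Whether these samples held some lcs7 material was not tested; if they did, the Col-0 differences with all arrays would in part be differences between the lines. Replicate 1 in turn had the lowest array weight, 0.584, against 0.935 and 0.846 for replicates 2 and 3. Values from replicate 1 alone are therefore given beside some of the results. In them this lone array is taken to have the spread of the remaining groups. A gene printed without such a value need not have passed from replicate 1 alone. The shoot marker RCA, the activase of the carbon-fixing enzyme Rubisco and the 1 measured of 7 listed, had signals of 22134.8 to 24418.3 at 2 mM and 21554.8 to 23898.1 at 0.3 mM in Col-0. The 3 measured of 12 root markers (PYK10, EXPA7 and EXPA18) had a summed signal of 973.4 to 1174.0 at 2 mM and 1424.6 to 1722.6 at 0.3 mM, nearly all of it from PYK10, so the sum was higher at low calcium. limma called 0 of the 3 (1 higher at an unadjusted p under 0.05), and the part of root tissue in the results was not tested.

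Throughout, differences are log2(signal + 50) at 0.3 mM minus 2 mM with their SE from limma (n = 3 arrays per group), and a probe set was called at an adjusted p under 0.05. Of the 13513 probe sets 482 (3.57%) were called in Col-0, 230 higher (1.7%) and 252 lower (1.86%) at low calcium. In whole shoots fewer cells of a type and less RNA per cell cannot be told apart. The median size among the called was 0.66, and 91 changed at least 2-fold, of which 62 rose and 29 fell. Without a correction for the number of tests 1255 probe sets were higher (9.29%) and 1378 lower (10.2%) at p under 0.05. Counts per list given below stand against these shares and those of the calls. The arrays of the calcium levels did not overlap in any of the 482, nor in 22.2% of all probe sets. A lack of overlap named below at a called gene is therefore no support beyond its call. Leaving out single arrays moved the count over 1.5 times in several fits. It was 203, 280 and 40 without Col-0 replicates 1, 2 and 3 at 2 mM, and 190 without Col-0 replicate 1 at 0.3 mM. Without lcs7 replicate 3 at 2 mM it was 299, and without lcs7 replicates 2 and 3 at 0.3 mM it was 287 and 293. Of the 482, 36 were called in each of the 12 fits that left out 1 array, 26 higher and 10 lower. From replicate 1 alone 578 were called, 309 higher and 269 lower, and 231 of these were among the 482.

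The share called was larger at higher signals. Below a signal of 20 it was 0.307%, between 100 and 300 it was 3.96%, and from 3000 upward it was 10.2%. Of the 7290 probe sets with a signal of 100 or more 419 (5.75%) were called, 194 higher and 225 lower, and 81 changed at least 2-fold, with 53 rises and 28 falls. Of the 6223 dimmer ones 63 (1.01%) were called. The median rise shrank from 0.84 at signals of 100 to 300 to 0.51 from 3000 upward, while the median fall was -0.62 and -0.59 there.

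**Figure D1:**
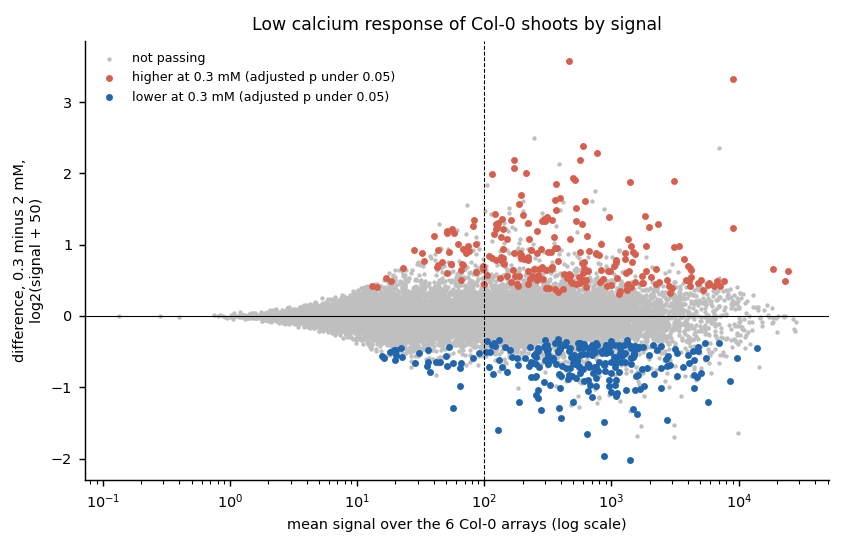
Difference between 0.3 and 2 mM calcium in Col-0 (vertical axis, log2(signal + 50)) against the mean signal over the 6 Col-0 arrays (horizontal axis, log scale) for all 13513 probe sets. Called rises are red, called falls blue and all others grey, and the dashed line marks a signal of 100; 419 of the 482 called lie to its right, and the largest rise, 3.58, is farther from 0 than the largest fall, -2.01.

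The largest rise belonged to the TRAF-like gene AT3G28220. Its signals were 17.5, 25.6 and 43.2 at 2 mM and 750.7, 1012.5 and 907.4 at 0.3 mM, a 30.9-fold ratio of the means. All low calcium arrays stood far above all controls, replicate 1 included (26.1-fold), and the difference was 3.58 ± 0.23 (adjusted p = 6.78e-05). This gene and AT5G52760 had the smallest adjusted p of the 30 genes of largest change.

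AT5G52760 and AT5G52750 are neighbours on chromosome 5 with a heavy-metal-associated domain, and they rose together. AT5G52760 had signals of 178.0, 200.6 and 132.2 at 2 mM and 1196.5, 920.6 and 758.6 at 0.3 mM. The groups did not overlap, and the difference was 2.18 ± 0.18 (adjusted p = 0.000478). For AT5G52750 the signals went from 253.1, 143.7 and 149.6 to 787.9, 917.6 and 756.9, again with no overlap, a difference of 1.93 ± 0.21 (adjusted p = 0.00321). Of the 4 measured members of this cluster 2 rose and 0 fell, with a median of 1.24, and the others did not pass: AT5G52740 had a difference of 0.56 ± 0.14 (adjusted p = 0.0551) and AT5G52770 of 0.15 ± 0.17 (adjusted p = 0.695).

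A chitinase gene and a locus close to it were also among the large rises. CHI, a chitinase gene, went from 21.8, 5.4 and 32.5 to 654.7, 147.1 and 171.5, a difference of 2.18 ± 0.45 (adjusted p = 0.0287), with replicate 1 far above the other low calcium arrays. The nearby AT2G43590 went from 186.7, 155.8 and 119.9 to 1411.9, 971.1 and 744.8 (2.39 ± 0.37, adjusted p = 0.0135). At both genes replicate 1 was the highest of the low calcium arrays, and from it alone the differences were 3.35 and 2.85.

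Most other large rises are known here by locus only. AT1G35710 went from 227.3, 209.4 and 196.1 to 2117.5, 706.4 and 1196.6 (2.28 ± 0.37, adjusted p = 0.0141), the low calcium arrays lying up to 3-fold apart but all above the controls. AT5G03350 went from 1489.0, 778.2 and 1673.8 to 6836.6, 4015.3 and 3968.8 (1.89 ± 0.31, adjusted p = 0.0141). AT4G12490, AT5G18470, AT5G55450, AT4G29700 and AT1G13470 rose by 1.65 to 2.08 with adjusted p from 0.00972 to 0.0441. AT1G23960 needs a separate reading, since it is one of the 11 genes that mark lcs7 signal. It had signals of 2.2, 11.9 and 3.4 at 2 mM but 27.7, 284.8 and 361.2 at 0.3 mM, and its difference of 1.98 ± 0.45 (adjusted p = 0.0397) was 0.48 from replicate 1 alone (adjusted p = 0.0786).

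**Figure D2:**
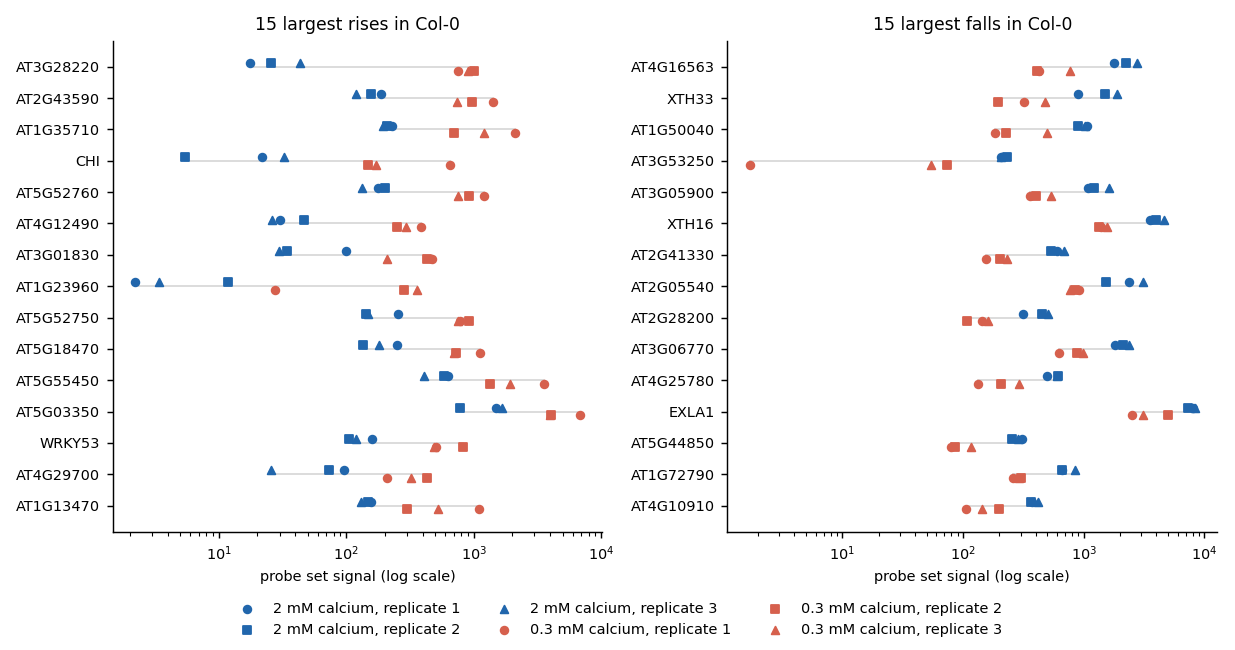
Deposited probe set signal (log scale) in each of the 6 Col-0 arrays for the 15 largest rises (left) and the 15 largest falls (right) among called probe sets with a mean signal of 100 or more. Blue marks are 2 mM and red marks 0.3 mM calcium, the shape gives the replicate, and the grey line spans the arrays of a gene; in each gene the 3 red marks lie on one side of the 3 blue ones, as the choice of genes required.

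Calcium sensors were the list closest to the treatment. Over all probe sets 1.7% were called higher and 9.29% were higher at an unadjusted p under 0.05. Of the 12 measured genes of calmodulins and calmodulin-like sensors 3 rose and 0 fell. An unadjusted p under 0.05 was found at 7, all higher, and 11 had a difference above 0. Their median difference was 0.45, against -0.012 over all probe sets, and 0.65 from replicate 1 alone, where 5 were called higher. AT3G01830 had signals of 98.9, 34.6 and 29.5 at 2 mM and 471.5, 427.3 and 209.9 at 0.3 mM, and the lowest treated array was above the highest control (2.00 ± 0.39, adjusted p = 0.0245). AT2G41090 went from 4452.2, 4769.3 and 7126.1 to 14461.4, 10729.0 and 12984.8, with both groups well apart (1.24 ± 0.20, adjusted p = 0.0141). AT5G39670 went from 53.2, 63.3 and 77.9 to 306.8, 162.0 and 145.9 (1.10 ± 0.21, adjusted p = 0.0236).

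The remaining sensors did not pass with all arrays. CML38, a calmodulin-like protein induced by stress and low oxygen, had signals of 190.6, 181.6 and 234.3 at 2 mM and 353.5, 1076.5 and 195.5 at 0.3 mM. Replicates 1 and 2 stood above the controls and replicate 3 among them, and the difference was 0.94 ± 0.42 (adjusted p = 0.242). AT3G47480 was higher in all low calcium arrays (243.2, 98.4 and 79.4 against 31.5, 46.0 and 35.3) but missed the threshold (1.03 ± 0.29, adjusted p = 0.0742). CML37, CML41, CML23, CML42 and AT1G21550 had differences of 0.18 to 0.56, AT1G76640 of 0.01 and CML43 of -0.16, with adjusted p from 0.25 to 0.988. IQD23, of a family of calmodulin-binding proteins, rose by 0.63 ± 0.14 (adjusted p = 0.0322).

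Genes that move calcium were hardly represented. CaS, a thylakoid protein with a role in calcium signalling of guard cells and chloroplasts, had signals of 5227.0, 5304.4 and 4695.3 at 2 mM and 3512.0, 4610.0 and 4463.8 at 0.3 mM. Its arrays did not overlap, yet the difference of -0.28 ± 0.12 did not pass (adjusted p = 0.209). The other measured gene of the 23 listed transporters and channels, AT1G64150, had a difference of -0.04 ± 0.09. Of 6 measured glutamate receptor-like channels limma called 0 (1 at an unadjusted p under 0.05). GLR2.7, a glutamate receptor-like channel, was far higher in replicate 1 (509.2) than in replicates 2 and 3 (162.2 and 134.4), against 152.2, 87.2 and 59.8 at 2 mM, and its difference of 0.95 ± 0.37 (adjusted p = 0.18) was 1.95 from replicate 1 alone (adjusted p = 0.0265). The subunits VHA-A2 and VHA-A3 of the vacuolar proton ATPase, which acidifies the vacuole beside the pyrophosphatase AVP1, had differences of -0.17 ± 0.09 and -0.13 ± 0.10 (adjusted p = 0.373 and 0.557; limma called 0 of 2, and 0 had an unadjusted p under 0.05).

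Salicylic acid genes were represented by few members, 4 of 37 listed. All 4 measured had differences above 0, with a median of 0.91 (1.54 from replicate 1 alone). Of these 2 were called higher, where 1.7% of all probe sets were. WRKY53, a transcription factor of defence and leaf senescence, had signals of 160.0, 105.9 and 120.4 at 2 mM and 503.3, 831.6 and 492.8 at 0.3 mM, with every treated array at least 3-fold above every control (1.86 ± 0.30, adjusted p = 0.0139; 1.64 from replicate 1 alone, adjusted p = 0.0575). GRX480, a glutaredoxin that links salicylic acid to the jasmonate pathway, went from 87.0, 54.4 and 39.6 to 329.7, 221.2 and 109.0 (1.23 ± 0.27, adjusted p = 0.0357). UGT76B1, a glycosyltransferase that modifies salicylic acid and a related immune signal, was raised in replicate 1 (119.4) and not in replicates 2 and 3 (15.1 and 27.0, against 7.6 to 20.2 at 2 mM), with a difference of 0.59 ± 0.31 (adjusted p = 0.321; 1.43 from replicate 1 alone, adjusted p = 0.0293). SAG101, a partner of the immune regulator EDS1, had a difference of 0.20 ± 0.10 (adjusted p = 0.323).

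Jasmonate and ethylene defence genes, of which 3 of 26 listed were measured, had the highest median of the lists (2.35, and 2.56 from replicate 1 alone). Of the 3 measured members 2 were called higher and 0 lower, against 1.7% and 1.86% of all probe sets. PDF1.2b, a plant defensin, had signals of 1408.3, 2236.8 and 1197.3 at 2 mM and 21041.2, 15957.9 and 12297.6 at 0.3 mM, a wide gap between the groups (3.32 ± 0.76, adjusted p = 0.0397; 3.71 from replicate 1 alone, adjusted p = 0.11). Its probe set is marked as matching more than one sequence, and defensins of this family are near copies, so the signal cannot be given to 1 gene with certainty. The probe set of PDF1.2 itself went from 2353.6, 3443.0 and 1317.7 to 13229.9, 12840.4 and 8840.3. Here too the groups were far apart in Col-0, but the difference of 2.35 ± 0.82 did not pass (adjusted p = 0.138). The SE of PDF1.2b also takes in lcs7 at 2 mM, where it read 777.7, 848.6 and 11457.1. The same holds for the SE of PDF1.2, which read 554.5, 451.5 and 8454.1 there. THI2.1, a thionin, rose from 26.7, 41.9 and 27.0 to 176.6, 110.5 and 64.6 (0.98 ± 0.23, adjusted p = 0.0443; 1.47 from replicate 1 alone). Outside the list OPCL1, an enzyme that activates the jasmonate precursor, went from 344.7, 197.0 and 302.1 to 971.4, 1115.4 and 766.1 with no overlap (1.61 ± 0.22, adjusted p = 0.00695). It was called in each of the 12 fits that left out 1 array, while PDF1.2b was called in 3 of them and THI2.1 in 2.

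Of 6 measured early elicitor genes (27 listed) 1 rose and 0 fell, and 4 had differences above 0. PUB24, a ubiquitin ligase that dampens immune responses, was the one that rose, from 123.1, 114.6 and 129.1 to 236.4, 229.3 and 326.3 (0.85 ± 0.15, adjusted p = 0.0151). The zinc finger gene STZ had signals of 257.8, 211.2 and 360.5 at 2 mM and 416.2, 1971.9 and 966.2 at 0.3 mM. Replicate 2 was highest and replicate 1 only just above the controls, and the difference of 1.62 ± 0.48 (adjusted p = 0.0884) was 0.54 from replicate 1 alone. PUB23, a sister of PUB24, showed the same order (136.9, 452.5 and 252.3 against 111.0, 74.6 and 190.6; adjusted p = 0.225). BIK1, a kinase of immune receptors, had a difference of 0.46, the transcription factor WRKY22 of -0.18 and the ubiquitin ligase PUB22 of -0.20, with adjusted p from 0.176 to 0.753. The median of the list was 0.66 with all arrays and 0.29 from replicate 1 alone, where 0 of 6 were called (adjusted p, limma) and the PUB24 difference was 0.73.

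**Figure D3:**
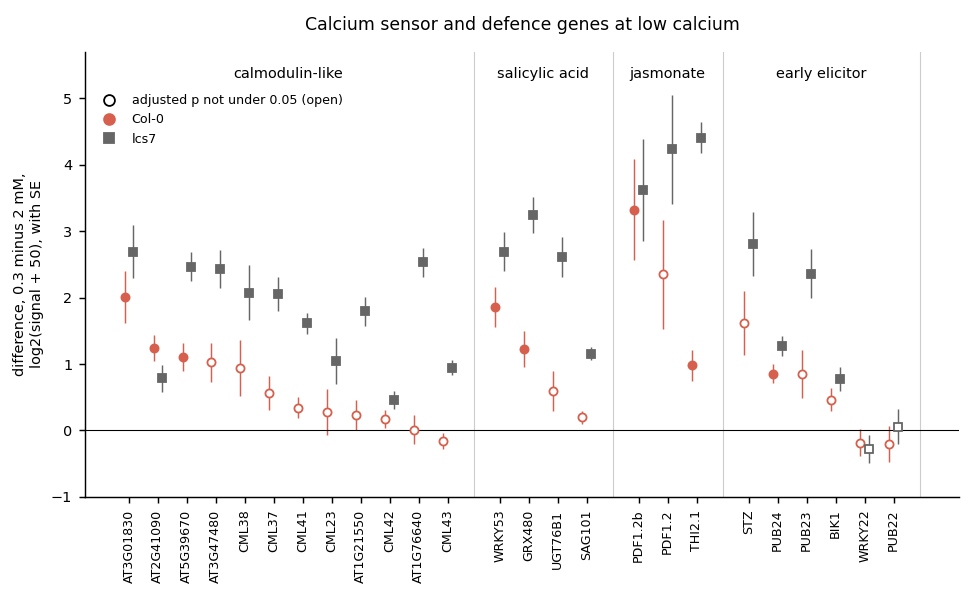
Difference between 0.3 and 2 mM calcium on the log2(signal + 50) scale with SE for the measured calmodulin-like, salicylic acid, jasmonate and early elicitor genes, in Col-0 (red circles) and lcs7 (grey squares). Filled marks passed at an adjusted p under 0.05 and open marks did not; in Col-0 3 calmodulin-like, 2 salicylic acid, 2 jasmonate and 1 early elicitor gene are filled.

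Of all called genes 87 carry a symbol, 49 higher and 38 lower, and some of these stand outside the lists. PDF1.4 (0.65 ± 0.14) and LCR68 (0.50 ± 0.09), both of the defensin type, rose, the first from 38.4 to 42.2 at 2 mM to 84.3 to 103.8 and the second from 3004.1 to 3292.4 to 4351.2 to 4670.9. ATLP-1, a thaumatin-like protein, rose by 0.85 ± 0.17, and ARPN, a plantacyanin, by 0.93 ± 0.20. ECS1, a cell wall protein linked to bacterial disease, had signals of 17545.5, 19941.6 and 20084.9 at 2 mM and 29246.9, 26065.9 and 25542.8 at 0.3 mM, with all treated arrays above the controls (0.49 ± 0.09, adjusted p = 0.017). QQS, an orphan gene linked to starch, went from 10.6, 4.9 and 21.3 to 46.7, 103.1 and 150.4 (1.21 ± 0.23, adjusted p = 0.0193). It is high in lcs7 at 2 mM (431.6, 626.2 and 485.6), was higher in Col-0 replicates 2 and 3 than in replicate 1, and had a difference of 0.64 from replicate 1 alone (adjusted p = 0.114).

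Genes of the ER body, a compartment that stores beta-glucosidases against herbivores, had 7 of 7 differences above 0, with 1 called higher (1.7% over all probe sets). JAL23, a jacalin lectin, went from 50.3, 57.8 and 43.6 to 193.8, 232.9 and 163.8, and the groups lay far apart (1.29 ± 0.18, adjusted p = 0.00695). PYK10, the main ER body glucosidase and also a root marker, was higher in every low calcium array (1350.5, 1596.3 and 1656.8 against 1037.7, 907.0 and 1012.1) at the edge of the threshold (0.61 ± 0.15, adjusted p = 0.0511). JAL22, JAL33 and JAL34 had differences of 0.57, 0.52 and 0.33, NAI2 of 0.17 and NAI1 of 0.13, none of which passed. The median was 0.52, and 0.28 from replicate 1 alone, which had 5 of 7 above 0.

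Flavonoid genes also rose in part. AT1G06000, a flavonol glycosyltransferase gene, went from 75.6, 89.2 and 45.8 to 319.5, 247.5 and 345.2 (1.57 ± 0.20, adjusted p = 0.00599), and its neighbour AT1G06010 rose by 0.38. UGT78D1, which adds rhamnose to flavonols, rose from 224.1 to 326.0 up to 431.1 to 573.5 (0.78 ± 0.17, adjusted p = 0.0322). DFR, an enzyme of anthocyanin synthesis, was higher in all treated arrays (275.2, 200.5 and 252.6 against 147.6, 151.9 and 103.3) and just missed the threshold (0.67 ± 0.17, adjusted p = 0.0504). UGT78D2 and UGT78D3 had differences of 0.16 and 0.02. In the 5 genes 2 rose and 0 fell, where 1.7% of all probe sets were called higher and 1.86% lower, and the median was 0.67. CHIL, a chalcone isomerase-like protein that is not on the list, rose by 0.94 ± 0.13 (adjusted p = 0.00769).

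Larger enzyme families had medians of 0.02 to 0.10 and few called members, where 1.7% of all probe sets were called higher. Of 47 UDP-glycosyltransferases 2 rose, UGT78D1 and UGT72E1 (0.56 ± 0.12), which glucosylates phenolic precursors, and the family median was 0.10. Of 19 CYP71B cytochromes P450 2 rose, CYP71B23 from 96.4 to 198.0 at 2 mM to 264.9 to 732.1 (1.36 ± 0.31, adjusted p = 0.0398) and CYP71B36 by 0.82 ± 0.16, with a median of 0.05. GSTU20 was the 1 of 13 glutathione transferases that rose (0.98 ± 0.19, adjusted p = 0.0214), and the family median was 0.02. At an unadjusted p under 0.05, 9.29% of all probe sets were higher and 10.2% lower. By that measure 6 UDP-glycosyltransferases were higher and 4 lower, and 2 glutathione transferases were higher and 2 lower. Of the CYP71B genes 5 were higher and 0 lower. 

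Of 2 measured genes of folding and stress in the endoplasmic reticulum 1 rose, while BZIP60, a transcription factor of that stress, had a difference of 0.70 that did not pass. CRT1b, a calreticulin that binds calcium and helps fold proteins in the endoplasmic reticulum, went from 1607.9, 1838.7 and 1546.9 to 2763.9, 2161.2 and 2444.7 with no overlap (0.54 ± 0.11, adjusted p = 0.0247). ATERDJ3B, a cochaperone of the same compartment, rose by 0.41 ± 0.10, and the plastid chaperonins Cpn60beta2 and Cpn60beta3 by 0.55 ± 0.13 and 0.52 ± 0.12. The glutaredoxins GRXC1 and GRXC2 rose by 0.54 ± 0.09 and 0.42 ± 0.10, and the mitochondrial peroxiredoxin PRXIIF by 0.44 ± 0.09. LPR2, a multicopper oxidase of root growth under low phosphate, rose by 0.54 ± 0.09, and CLE41, a peptide signal of the vascular cambium, by 0.52 ± 0.10.

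Cell wall genes went both ways. ATPMEPCRB, the 1 measured of 4 listed genes of pectin modification, is the pectin methylesterase PME41, whose products bind calcium in the wall. It rose from 662.0, 406.1 and 509.5 to 1182.1, 1491.3 and 736.8, where replicate 3 was close to the highest control (1.01 ± 0.24, adjusted p = 0.0441), and it was called in 1 of the 12 fits without an array. GH9C2, an endoglucanase with a cellulose-binding domain, went from 180.2, 292.1 and 220.7 to 461.9, 475.9 and 529.1 (0.96 ± 0.15, adjusted p = 0.0135). TBL26 and TBL36, of the family of wall acetyltransferases, rose by 0.71 ± 0.13 and 0.69 ± 0.13, while TBL45 of the same family had a difference of -0.48 ± 0.12 (adjusted p = 0.046).

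Among the enzymes that loosen the wall, XTH16 and XTH33 fell strongly. XTH16, a xyloglucan endotransglucosylase, had signals of 3553.6, 3942.1 and 4586.3 at 2 mM and 1387.2, 1348.0 and 1559.5 at 0.3 mM, a wide gap in every replicate (-1.46 ± 0.27, adjusted p = 0.0192). XTH33 went from 901.1, 1488.5 and 1896.5 to 318.3, 195.9 and 476.7 (-1.97 ± 0.46, adjusted p = 0.0425). In the list of 6 these 2 fell and 0 rose, and its median was 0.01, with EXPA4, an expansin, at 0.71 ± 0.22 (adjusted p = 0.102) on the other side. From replicate 1 alone the median was -0.29, XTH16 and XTH33 had -1.50 and -1.94 (adjusted p = 0.0753 and 0.133), and the 1 gene called was EXPA8, an expansin with 180.4 in that replicate, 492.7 and 495.5 in the others and 452.2 to 477.2 at 2 mM (-1.15, adjusted p = 0.0142). XTH32, a gene of the same family but not on that list, rose by 0.58 ± 0.13 (adjusted p = 0.033). EXLA1, an expansin-like protein, went from 8088.5, 7355.1 and 8326.8 to 2516.8, 5028.8 and 3066.9 (-1.21 ± 0.30, adjusted p = 0.0479).

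Further wall and surface genes fell by less. SKU5, a membrane-anchored protein of directional growth, went from 6128.3, 5350.0 and 6554.4 to 2894.4, 3233.4 and 3834.7 with no overlap (-0.85 ± 0.14, adjusted p = 0.0151). CSLA03, a glucomannan synthase of the cellulose synthase-like family, fell by 0.97 on the log2 scale (SE 0.20), and TET10, a tetraspanin of the plasma membrane, by 0.87 (SE 0.15). RALFL24, a signalling peptide of the RALF family, fell by 0.51 (SE 0.11). The 7 measured tubulins had 6 differences below 0 and a median of -0.25, but limma called 0 of 7. At an unadjusted p under 0.05, 4 were lower, against 10.2% of all probe sets. The farthest was TUB5, from 2930.6, 3052.6 and 3459.0 to 2007.3, 2600.0 and 2580.7 (-0.39 ± 0.12, adjusted p = 0.0845). Its difference was -0.63 from replicate 1 alone.

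The largest fall of all was at AT4G16563, known here by its locus. Its signals were 1767.4, 2238.2 and 2772.2 at 2 mM and 421.9, 408.1 and 772.7 at 0.3 mM, a 4.23-fold ratio of the means, and the difference was -2.01 ± 0.42 (adjusted p = 0.029). AT3G53250, listed in RefSeq as the small auxin-induced gene SAUR57, went from 207.9, 230.9 and 206.2 to 1.7, 72.8 and 53.7 (-1.61 ± 0.33, adjusted p = 0.028); replicate 1 was near the floor of the scale, so the size there is not well measured. AT3G05900 went from 1088.9, 1212.1 and 1632.0 to 359.5, 404.6 and 533.4, with no array between the groups (-1.49 ± 0.19, adjusted p = 0.00599). The other large falls (AT1G50040, AT2G41330, AT2G05540, AT2G28200, AT3G06770, AT4G25780, AT5G44850, AT1G72790 and AT4G10910) lay between -1.66 and -1.15, with adjusted p from 0.00288 to 0.0397. GH3.17, an enzyme that conjugates auxin to an amino acid, fell by 0.58 (SE 0.14, adjusted p = 0.0419).

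Several nuclear genes of metabolism and regulation fell by moderate amounts. MCCA and MCCB, both subunits of the mitochondrial methylcrotonyl-CoA carboxylase of leucine breakdown, had differences of -0.89 ± 0.18 and -0.40 ± 0.09, and IVD, the dehydrogenase one step before, of -0.72 ± 0.16 (adjusted p = 0.0286, 0.0414 and 0.0366). FDH, the mitochondrial formate dehydrogenase, went from 5527.1, 4491.0 and 4960.8 to 3024.3, 3087.5 and 3285.6, with the groups far apart (-0.66 ± 0.10, adjusted p = 0.0138). AKINBETA1, a regulatory subunit of the energy-sensing kinase SnRK1, went from 2875.9, 2901.9 and 3537.3 to 1762.3, 1855.9 and 1901.4 (-0.73 ± 0.10, adjusted p = 0.0063), and it was called in each fit without 1 array. The transcription regulators bHLH121 of iron homeostasis, ULT1 of floral meristems and BPC1 of ovule development fell by 0.65, 0.74 and 0.49. SDP1, a lipase of storage oil, fell by 0.45 and COR27, a cold-induced regulator of the clock, by 0.56.

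Transcripts of the chloroplast genome had lower signals at low calcium throughout. All 69 measured genes had a difference below 0, with a median of -0.46 against -0.012 over all probe sets; the median was -0.46 with quantile normalization and -0.49 with median centring. Only 5 were called lower and 0 higher, while 34 were lower and 0 higher at an unadjusted p under 0.05. Over all probe sets 1.86% were called lower and 10.2% were lower at an unadjusted p under 0.05. Of the 69 genes 65 had a signal of 100 or more, and 5.75% of all probe sets that bright were called in either direction. From replicate 1 alone 64 of 69 were below 0, with a median of -0.37 and 1 called. Genes of a plastid are copied from few promoters and many share one transcript, so they are not independent measurements. Such transcripts carry short tails at most, and how the labelling primed them is not given in the sources used here.

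By complex, the medians ran from -0.70 to -0.24. The 5 photosystem I genes (psa) had a median of -0.70, the 15 photosystem II genes (psb) of -0.55 and the 6 ATP synthase genes (atp) of -0.69. The cytochrome b6f genes (pet, 6 measured) had -0.42, ribosomal proteins (rpl and rps, 15 measured) -0.37, the NDH complex (ndh, 10 measured) -0.24 and the plastid RNA polymerase (rpo, 4 measured) -0.24. The 8 genes outside these complexes, rbcL and accD among them, had -0.58. From replicate 1 alone the psa, atp and psb medians were -0.32, -0.44 and -0.48 and that of the 8 other genes -0.51, an order that differs from that of all arrays. psbA, the D1 protein of the photosystem II core, had signals of 3368.1, 3268.9 and 3521.3 at 2 mM and 2249.1, 2191.8 and 1773.8 at 0.3 mM. Its groups were separated by a wide gap (-0.70 ± 0.11, adjusted p = 0.0135). psbE, part of cytochrome b559, went from 5181.8, 5414.0 and 5919.4 to 3815.3, 4217.7 and 4091.5 (-0.44 ± 0.10, adjusted p = 0.0423).

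The other called chloroplast genes were psaA, of the photosystem I core (-0.84 ± 0.21), accD, of plastid fatty acid synthesis (-0.92 ± 0.23), and ndhK, of the NDH complex (-1.05 ± 0.25), with adjusted p from 0.0453 to 0.0496. ndhK went from 692.9, 820.5 and 1182.6 to 443.8, 449.7 and 310.8, the groups again apart. rbcL, the large subunit of Rubisco, was lower in all treated arrays (2456.5, 2501.6 and 1844.3 against 3433.1, 3648.8 and 3358.9) and did not pass (-0.62 ± 0.25, adjusted p = 0.202). The 23 probe sets for genes named after the mitochondrial genome, a comparison chosen after the values were seen, had 21 differences below 0 with a median of -0.18, of which limma called 0 and 6 were lower at an unadjusted p under 0.05.

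Nuclear photosynthesis genes, of which 8 of 44 listed were measured, were spread around 0. Of 8 measured genes 5 were below 0, the median was 0.00, and 1 was called, upward: LHCB4.3, a minor antenna protein of photosystem II, from 962.0, 1056.9 and 986.4 to 2401.1, 1639.1 and 1769.4 (0.90 ± 0.17, adjusted p = 0.0221). Its sister LHCB4.2 had controls of 7430.5 to 8189.5 and read 4137.0 and 6351.7 in replicates 1 and 3, below all of them, and 8189.8 in replicate 2, level with the highest, a difference of -0.38 ± 0.19 (adjusted p = 0.315) that was -0.91 from replicate 1 alone (adjusted p = 0.0194). Of 5 chlorophyll synthesis genes limma called 0, with a median of 0.20 that was 0.04 from replicate 1 alone. At an unadjusted p under 0.05, 3 of them were higher, against 9.29% of all probe sets.

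**Figure D4:**
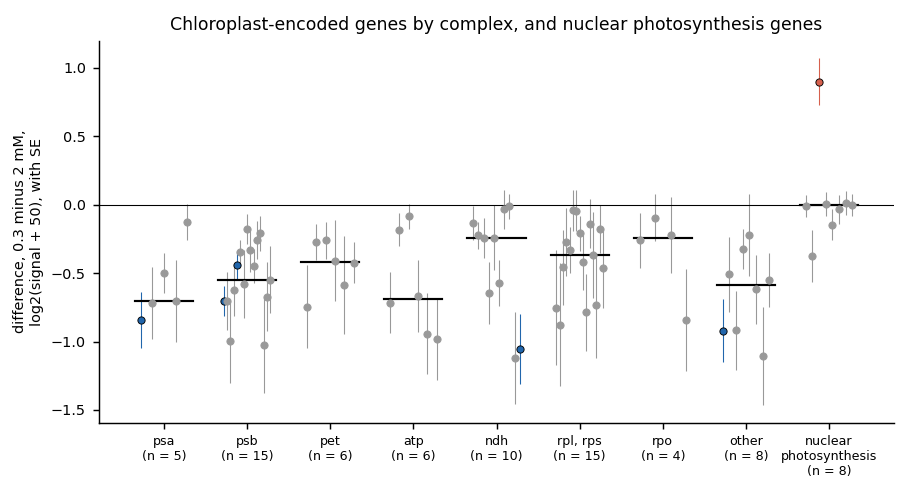
Difference between 0.3 and 2 mM calcium in Col-0 on the log2(signal + 50) scale with SE for each measured chloroplast-encoded gene, grouped by complex, and for 8 nuclear photosynthesis genes. Blue points were called lower, the red point (LHCB4.3) was called higher, grey points did not pass, and black bars are medians; all 69 chloroplast genes lie below 0.

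The remaining lists had no called member. They were 9 autophagy genes of the ATG8 family (median -0.09; 2 at an unadjusted p under 0.05, both lower), 6 SWEET and SUC sugar transporters (0.15; 0 at an unadjusted p under 0.05), 4 genes of cold, drought and abscisic acid (0.13; 1, lower) and 2 of iron homeostasis (0.21; 0). COR47, a dehydrin, had signals of 11232.4, 6871.8 and 8856.9 at 2 mM and 5485.9, 6963.2 and 5636.2 at 0.3 mM, with overlap in a single pair of arrays (-0.55 ± 0.17, adjusted p = 0.104). The 1 measured senescence gene, WRKY6, had a difference of -0.02. PYE, a transcription factor of iron deficiency, was at 0.34 with all arrays and at 0.82 from replicate 1 alone (adjusted p = 0.0384). GI, the 1 measured clock gene, had signals of 135.5, 514.2 and 371.3 at 0.3 mM and 321.5 to 530.8 at 2 mM, a difference of -0.29 that was -1.22 from replicate 1 alone (adjusted p = 0.0327).

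The genes called in Col-0 were then read in lcs7, whose 6 arrays share none with the Col-0 comparison. Of the 482 probe sets 449 (93.2%) had the same sign in lcs7, against 65.2% of all probe sets, and 365 (75.7%) were also called the same way, where lcs7 called 26.0% of all probe sets (12.5% higher and 13.5% lower). Of the 230 rises 177 were called higher in lcs7, and of the 252 falls 188 were called lower; 5 were called the opposite way. The shared calls were 10.4% of the 3517 that low calcium gave in lcs7. The median rise was 0.73 in Col-0 and 0.87 in lcs7, and the median fall -0.60 and -0.72. From replicate 1 alone 540 of 578 (93.4%) had the same sign in lcs7 and 402 (69.6%) were called the same way.

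The difference between both responses was called at 91 of the 482, against 5.91% of all probe sets, and 65 of these were larger in lcs7. The 482 were chosen by the Col-0 response, which is itself part of that difference, so the shares cannot be compared directly. Among the genes named above the gap was widest at THI2.1, with signals of 37.2, 30.6 and 46.0 at 2 mM and 1506.7, 2502.9 and 1558.0 at 0.3 mM in lcs7 (response 4.40 against 0.98 in Col-0, adjusted p of the difference 0.00031). JAL23 had a response of 4.29 in lcs7 and 1.29 in Col-0 (adjusted p = 0.000108). AT3G28220 was the opposite case in size, with 2.95 in lcs7 and 3.58 in Col-0, a difference that did not pass (adjusted p = 0.35; -0.63 ± 0.33). The remaining 26 were smaller or reversed in lcs7. TBL36 rose in Col-0 and had -0.32 in lcs7 (adjusted p = 0.0103), FDH fell in Col-0 and had 0.11 in lcs7 (adjusted p = 0.0111), and LCR68 and ECS1 had -0.25 and -0.05 in lcs7 (adjusted p = 0.00749 and 0.0261).

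**Figure D5:**
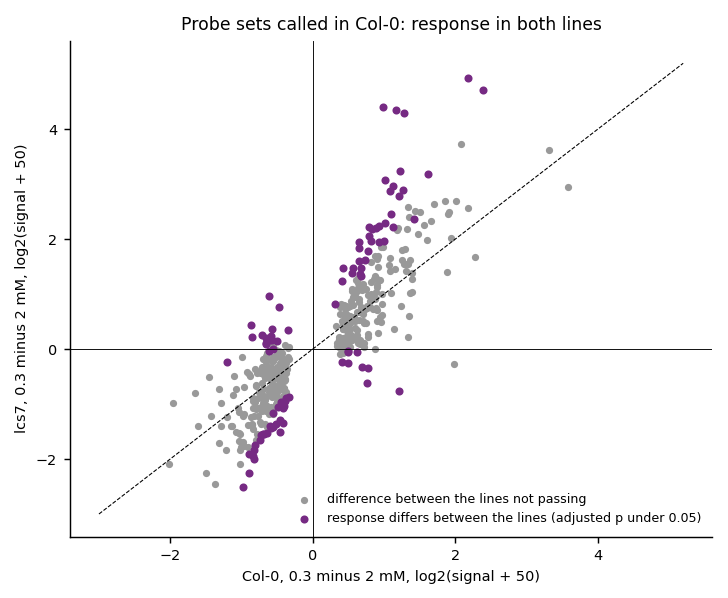
Difference between 0.3 and 2 mM calcium in lcs7 (vertical axis) against that in Col-0 (horizontal axis), both log2(signal + 50), for the 482 probe sets called in Col-0. The dashed line marks equal responses and purple marks the 91 whose responses differed between the lines at an adjusted p under 0.05; most rises above 1 in Col-0 lie above the dashed line.

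Some genes of the Col-0 response already differed between the lines at 2 mM calcium. Of the 230 rises 62 were higher and 1 lower in lcs7 than in Col-0 at 2 mM, where 2.38% of all probe sets were higher and 2.22% lower, and of the 252 falls 47 were lower and 4 higher. The line difference and the calcium difference share the Col-0 arrays at 2 mM, so the counts are not independent. In addition, replicates 2 and 3 of low calcium Col-0 carry lcs7 marker signal, and their part in these counts was not tested. Of the 309 rises called from replicate 1 alone 38 were higher and 1 lower in lcs7 at 2 mM, and of the 269 falls 29 were lower and 5 higher. AT3G28220 had a line difference of 1.72 beside its calcium difference of 3.58, AT5G52760 of 1.61 beside 2.18, and AT5G52750 of 1.58 beside 1.93. GRXC1 was farther apart between lines (1.77) than between calcium levels (0.54). By contrast JAL23, WRKY53, OPCL1 and PDF1.2b had line differences of 0.07, 0.36, 0.61 and 0.35, with adjusted p from 0.181 to 0.905, and AT5G44850, one of the large falls, was lower in lcs7 already at 2 mM (69.0, 53.1 and 42.8 against 307.1, 254.0 and 282.2 in Col-0).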

How the data were processed

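Per the labels' protocols, shoot RNA was labelled with biotin by the standard Affymetrix protocol. The authors deposited 1 linear intensity per probe set and array. The submitters' processing notes name RMA and oligo 1.32.0, but the table holds no log2 values and its arrays differ in their quantiles. Their means after trimming 2% at each end were nearly equal, at 494.3 to 495.3. The step that made these values is not given in the sources used here. Arrays give no depth; their number limits the precision. Groups come from the labels. Gene names come from the platform annotation, updated through RefSeq (TAIR10.1), which matched 13436 of 13513 probe sets; 503 probe sets naming several genes were left out, and 1551 tested ones carry a symbol.

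limma 3.58.1 (R 4.3.3) was fitted to log2(signal + 50) with 1 mean per group over all 12 arrays, 2-sided, with Benjamini-Hochberg adjustment over 13513 probe sets. The members, gene lists and tests were chosen with earlier results of these data known. Named genes are the 15 largest rises and falls at a signal of 100 or more with no overlap of arrays and no shared probe set, and from each list the called members (4 at most) or, with none called, the 2 members of smallest p; called genes with a symbol, further list members and the mitochondrial group were added after their values were seen. Lists of kinases, sigma factors, phosphate, sulfur and potassium starvation and seed storage had 0 measured members. Tests were checked on simulated data. Tables used Python 3.11.15, numpy 2.4.6 and pandas 2.3.3, and figures matplotlib 3.10.9. Promoter motifs and sequences were not analysed here.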

Additional observations from a re-analysis of the deposited data

Results flagged for a closer look

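The calcium response differed between the lines at 56 of 264 genes (limma test of that difference, adjusted p under 0.05), against 5.91% of all probe sets. The 264 are the genes named in the text, further members of the lists, called genes with a symbol and the adjacent pairs. Many of them were chosen by their Col-0 response, which is part of the tested difference, so the shares cannot be compared directly. Values are the lcs7 response minus the Col-0 response on the log2(signal + 50) scale, and they rest on all arrays, including Col-0 replicates 2 and 3 at 0.3 mM.

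Among the genes that rose in Col-0 and rose more in lcs7, the value was 3.42 at THI2.1, 3.0 at JAL23, 2.76 at CHI, 2.33 at AT2G43590, 2.02 at GRX480, 1.36 at the sensor gene AT5G39670, 1.31 at ARPN and at PDF1.4, 1.28 at ATPMEPCRB, 1.15 at CYP71B36, 0.95 at AT4G23680 and 0.83 at ATERDJ3B. Genes that rose in Col-0 and had a response below 0 in lcs7 were QQS (-1.98), TBL36 (-1.01), LCR68 (-0.74), EC1.2 (-0.65) and ECS1 (-0.54).

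Further genes did not pass in Col-0 and rose in lcs7. They were AT1G76640 (2.52), WRKY6 (2.09), UGT76B1 (2.02), DFR (1.56), AT1G21550 (1.56), CML37 (1.49), CML41 (1.27), CML43 (1.10), SAG101 (0.96), NAI2 (0.84) and UGT78D2 (0.74). Others did not pass in Col-0 and had a response below 0 in lcs7. Of these COR47 had -1.62, LHCB4.2 -1.38, PORB -1.03, TUB5 -1.02, CHLI2, PSAN and rpl33 -0.90 each, CHLM and psaJ -0.81, PSBY -0.79, CaS -0.76, LHCB4.1 -0.70, TUB6 -0.60, HEMB1 -0.56, PSAE-1 -0.53, TUB9 -0.50 and RCA -0.46.

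Genes that fell in both lines and by more in lcs7 were AT3G19850 (-1.35), the remorin gene AT3G61260 (-1.17), MCCA (-1.02), AKINBETA1 (-0.92), CYTC6A (-0.92), AT4G30690 (-0.87) and BPC1 (-0.57). At AT5G44850 (0.97), GH3.17 (0.95), FDH (0.77) and LpxB (0.74) the fall of Col-0 stood beside a response in lcs7 that did not pass. For AT5G44850 the lcs7 signal was already 42.8 to 69.0 at 2 mM.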

How the results depend on the processing

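The count of 482 was 41 with no offset (28 at a signal of 100 or more; 37 of the 41 were among the 482), 228 with an offset of 16 (175), 827 where only probe sets of signal 100 or more were tested, and 76 (64) with only the 6 Col-0 arrays in the fit, which has fewer degrees of freedom. A 2-fold limit left 91 (81) in Col-0, 715 in lcs7 and 272 for the difference between the lines. That difference, called at 798, had 309 calls with no offset, 493 with an offset of 16 and 293 without Col-0 replicates 2 and 3 at 0.3 mM. Leaving out 1 array gave 40 to 521 calls in Col-0, 30 to 453 at a signal of 100 or more, 482 to 945 for the difference and 2744 to 3641 in lcs7. Offset 100, quantile normalization, median centring, the intensity trend, array weights and 1 probe set per gene kept the Col-0 count between 338 and 646. Of 115 calls at named genes 107 passed with quantile normalization, 60 with an offset of 16, 29 with only the Col-0 arrays, 13 without Col-0 replicate 3 at 2 mM and 12 with no offset; none changed sign. Same-numbered Col-0 arrays deviated together by correlations of 0.0369, -0.0327 and 0.0495, while 4 of 6 Col-0 arrays matched their own number best. The labels do not say whether the numbers pair the arrays, and these values do not settle it. With the replicate number as a block the counts were 425, 363, 672 and 3355, with 351 shared. The cause of these shifts was not tested.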

Other observations

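Among the 470 called loci placed on chromosomes 1 to 5, 11 pairs of directly adjacent genes were called in the same direction, 5 higher and 6 lower. How many such pairs would arise without a link between neighbours was not computed, so the count alone does not show that called genes lie together. Beside the heavy-metal-associated pair, AT4G23670 and AT4G23680 rose by 0.49 and 1.42, and AT5G63020 rose by 0.88 next to GRXC1. Among the falls AT3G19850 (-0.90) lies beside bHLH121, and AT4G37240 (-1.08) beside AT4G37250 (-0.55). The remorin gene AT3G61260 fell by 0.83 in Col-0 and by 2.00 in lcs7, and its line difference at 2 mM calcium was -0.02.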
